A study of Mus musculus with 2 samples.

Results

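The REST motif, the DNA word bound by the repressor REST, was 1 of 579 transcription factor motifs counted in single cells of the embryonic mouse retina, and it was taken by its name in the motif list. Chromatin accessibility had been measured by single-cell ATAC-seq of 10x Genomics, which marks open DNA with a transposase, in dissociated wild-type (WT) retina at E14.5. There was 1 group with 2 replicate libraries, and the labels give no treatment, strain, Cre driver or altered allele. Nothing in the labels ties the replicates to separate embryos or litters, so SDs and p-values cover the spread of these libraries alone, and that spread may be technical. Replicate 1 held 2422 cell barcodes and replicate 2 held 3033. Of these, 1828 barcodes occurred in both libraries. A cell was kept where its barcode had at least 300000 motif counts and more than the same barcode had in the other library, which left 890 cells in replicate 1 and 1051 in replicate 2. Only 18 of the kept cells of replicate 1 and 126 of replicate 2 had a barcode that occurs in 1 library alone. The median kept cell held 3519151 motif counts in replicate 1 and 3523871 in replicate 2. No transcript or protein of REST was measured, and a motif count says that matching DNA was open, not that the factor was bound.

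REST, also called NRSF, is a zinc-finger protein that binds a long element called RE1 and recruits corepressors and histone-modifying enzymes. Its known targets are genes of neuronal function such as ion channels, synaptic proteins and axonal proteins, which it holds down in progenitors and in cells outside the nervous system. Its own level is known to fall as progenitors become neurons. In the retina at this age, cycling progenitors are giving rise to ganglion cells, which are marked by the POU4F (Brn3) homeodomain factors, and to horizontal cells, amacrine cells and photoreceptor precursors.

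The letters of the deposited motif matrix were not used here, so the element is shown from promoters of the same genome. The left block CAGCACC and the right block GGACAG of RE1, spaced by 2 bases, were searched for on both strands in 32851 promoter windows of RefSeq (GRCm38.p6, the assembly behind mm10), each from 250 bases before to 50 bases after a gene's start. The pair stood in 12 windows (0.0365%) belonging to 11 genes, whereas the left block alone stood in 7.14% of windows and the right block alone in 22.2%; the blocks do not overlap. The following 4 are shown, chosen after the matches were seen, for the known roles of their genes, with the blocks in capitals and the strand of the element named below.
Lhx3: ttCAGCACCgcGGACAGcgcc
Hrh3: ggCAGCACCacGGACAGcgcc
Sptbn4: tcCAGCACCacGGACAGttcc
Lca5: ccCAGCACCcaGGACAGaccg

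The element of Lhx3, a LIM-homeodomain factor, lies at chr2:26208272-26208292 on the minus strand, and its middle is 32 bases upstream of the start. That of Hrh3, the histamine H3 receptor, lies at chr2:180104574-180104594 on the plus strand, 176 bases upstream. Sptbn4, a spectrin of the axon initial segment, has it at chr7:27396280-27396300 on the plus strand, 92 bases upstream. Lca5, the photoreceptor cilium protein lebercilin, has it at chr9:83441288-83441308 on the plus strand, 170 bases upstream. The other genes with a match were Fam163b, Fbll1, Ogdhl, Osbp2, Ttc9b and the predicted genes Gm31317 and Gm32659. Peaks were not analysed here, so whether these windows were open was not measured, and a match of letters is not a bound site.

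REST motif counts made up nearly the same small share of all motif counts in both libraries. They numbered 4676463 in replicate 1 and 5380144 in replicate 2, which is 141.1 and 140.6 per 100000 motif counts (mean 140.8 ± 0.302, SD, n = 2). By mean count the motif ranked 127 and 128 of 579. Every kept cell had REST counts: the lowest, median and highest were 414, 5048 and 33184 in replicate 1 and 360, 5065 and 24912 in replicate 2. As a share, the lowest, median and highest cells had 110.1, 141.3 and 166.0 REST counts per 100000 in replicate 1 and 113.8, 140.9 and 166.1 in replicate 2. The 10th and 90th percentiles of cells were 132.2 and 151.8 in replicate 1 and 131.9 and 151.1 in replicate 2, a ratio of 1.15 in each.

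The spread of REST between cells was small in absolute terms and larger than usual for a motif so abundant. Beyond counting noise, its coefficient of variation (CV) across cells was 5.24% and 5.04%, against a median motif at 6.19% and 6.27%, and against counting noise of 1.41% in a cell of median REST count. Set against the trend of CV on abundance over all motifs, REST stood 0.36 and 0.25 above it on the log2 scale, rank 74 and 99 of 579. For comparison, the mean excess CV of both libraries was 15.7% for POU4F1 and 3.84% for CTCF, the insulator and loop-anchor factor. It was 19.4% for INSM1, a repressor of neuroendocrine precursors, and 3.40% for SNAI2, a repressor that binds E-boxes. These 4 values are not set against abundance. Above the trend the same motifs stood at means of 1.64, 0.41, 2.03 and 0.11 (log2). By that measure CTCF was above REST, whose mean was 0.31.

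**Figure D1:**
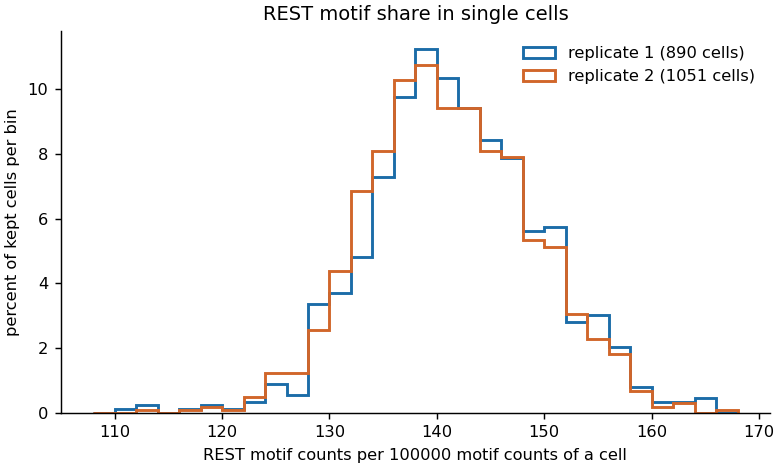
Distribution of the REST share over the kept cells of each library; the x axis is REST motif counts per 100000 motif counts of a cell and the y axis the percent of that library's kept cells per bin. Both libraries have 1 peak near their medians of 141.3 and 140.9, and their outlines overlap from end to end.

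The REST share was highest in the cluster of cells with the most open POU4F motifs and, among clusters large enough to test, lowest in the one with the most open SOX motifs. Cells were grouped on all motifs but REST, which gave 7 clusters, of which 6 had at least 20 cells in each library, and REST was then read in each. Cluster 4, called ganglion cell-like because POU4F1, POU4F2, POU4F3 and EBF1 were among its 10 leading motifs, held 150.5 and 150.7 REST counts per 100000 in replicates 1 and 2 (mean 150.6 ± 0.167). Cluster 2, which stays unnamed and in which SOX motifs were on average 0.068 and TEAD motifs 0.067 above the other clusters on the log2 scale, held 134.9 and 134.1 (mean 134.5 ± 0.554). Among the 6 larger clusters these were the ends of the order in both libraries, and they did not overlap.

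Between them, cluster 5, unnamed, was led by ZBTB7B, ZBTB7C and HIF1A, with INSM1 and the photoreceptor motif Crx among its 10 leading motifs. It held 147.0 and 148.6 REST counts per 100000 (mean 147.8 ± 1.12), next below cluster 4, although its POU4F motifs were at -0.17 against the other clusters (log2). Its cells were shallow, with medians of 0.603 and 0.672 of their library's median depth, and the part of depth in its REST share was not tested. Cluster 1, unnamed and with TEAD motifs 0.063 above the others (log2), held 141.2 and 141.0. Cluster 6, proneural bHLH-like with NEUROD1, NEUROD2, Neurog1 and Atoh1 among its leading motifs, held 141.4 and 140.8. Cluster 7, unnamed and deeper than its library's median by a factor of 1.27 and 1.29, held 139.8 and 139.6; its TEAD motifs were 0.084 above the others, more than those of cluster 2. Among neighbours in this order only clusters 1 and 6 overlapped between libraries. Cluster 3, with 19 and 16 cells and 0.178 and 0.223 of the median depth, was below the minimum of 20 cells and was not tested; its REST share was 132.6 and 132.1, below that of cluster 2.

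**Figure D2:**
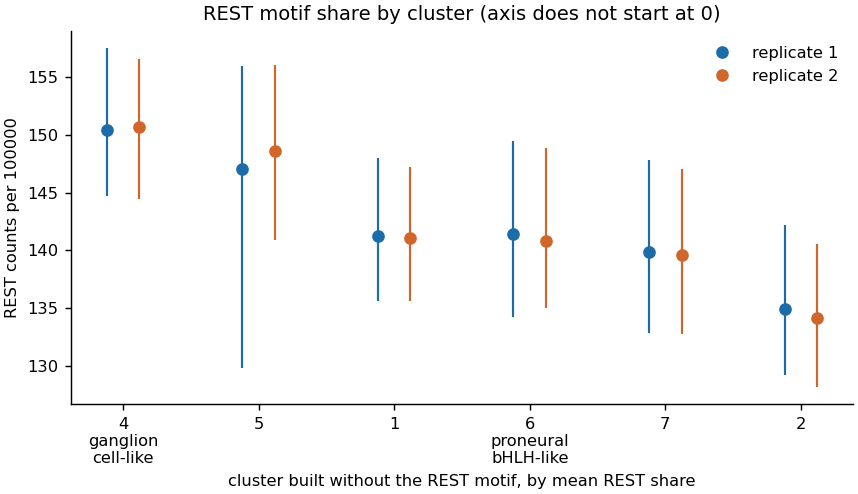
REST motif counts per 100000 motif counts (y axis, not starting at 0) in each cluster built without the REST motif (x axis, from highest to lowest mean), with points for the summed cells of each library and bars from the 10th to the 90th percentile of cells. Cluster 4 stands at 150.5 and 150.7 and cluster 2 at 134.9 and 134.1, while the cells of neighbouring clusters overlap widely.

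With edgeR's quasi-likelihood test and Benjamini-Hochberg adjustment over all motifs, REST differed among the clusters (adjusted p = 4.39e-07), as did 93.4% of motifs. The range from cluster 4 to cluster 2 was 0.17 on the log2 scale, a fold of 1.12, where the median motif had a range of 0.12 and REST ranked 135 of 579; choosing the ends fixes its direction. Against the mean of the other clusters, REST in cluster 4 was higher by 0.098 ± 0.0042 (log2, SE, adjusted p = 3.52e-06), rank 28 from the top, with 64.6% of motifs past the threshold of 0.05. In cluster 5 it was higher by 0.066 ± 0.0061 (adjusted p = 8.22e-05), rank 145, with 70.1% of motifs called. In cluster 2 it was lower at -0.10 ± 0.0024 (adjusted p = 4.37e-08), rank 25 from the bottom, with 80.8% of motifs called. Smaller values of -0.014 ± 0.0017 in cluster 1 (69.9% of motifs called), -0.016 ± 0.0041 in cluster 6 (55.4%) and -0.034 ± 0.0036 in cluster 7 (69.6%) also passed, at adjusted p = 0.000301, 0.0170 and 0.000165. Without the library as a block, clusters 1 and 6 lost the call (adjusted p = 0.150 and 0.0856). Clusters came from other motifs of the same cells, and motifs share peaks, so the REST share is not a fully separate measure.

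The cells with the highest REST shares came mainly from cluster 4. Of the top 10% of cells by REST share, cluster 4 held 53 of 89 in replicate 1 (59.6%) and 69 of 105 in replicate 2 (65.7%), while it held 14.4% of all kept cells as the mean of both libraries. Cluster 5 gave 18 and 20 of these cells, and cluster 2 gave 0 and 2. Of the bottom 10%, cluster 2 held 57 of 89 (64.0%) and 72 of 105 (68.6%), against 21.1% and 22.2% of all kept cells, and cluster 4 held 0 in both. These are counts of the kept cells, and the cells of a library are not independent draws. Small cluster 3 gave 9 and 7 of the bottom cells, and cluster 5, present at both ends, gave 8 and 2. The top cells had median depths of 0.813 and 0.936 of their library's median, and the bottom cells 1.04 and 0.999.

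Motif scores gave a second view in which cells were ordered along known factor families. Each score is the mean of its motifs' depth-corrected log2 levels, and the cells of each library were ordered by it and divided into 3 equal parts (terciles) or 10 (deciles); a tercile is a range of a score, not a cell type. The POU4F score, from POU4F1, POU4F2 and POU4F3, did not have a steady relation to REST. From the lowest decile to the 8th, the REST share went from 143.2 to 136.9 per 100000 in replicate 1 and from 142.5 to 137.0 in replicate 2. In the 9th decile it was 146.3 and 145.3, and in the top decile 150.0 and 150.5, the level of cluster 4. The 8th decile was the lowest and the top decile the highest in replicate 1; in replicate 2 the lowest was the 7th, at 136.9.

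The difference between outer terciles by POU4F was small in kept cells. The REST share was 141.1 and 141.4 in the lowest tercile, 139.1 and 138.0 in the middle and 143.4 and 143.3 in the highest, so that the middle tercile was below both others in each library. Highest minus lowest was 0.027 ± 0.0055 on the log2 scale (0.031 and 0.023 by library, edgeR adjusted p = 0.00389), with 52.2% of motifs called and REST at rank 96 from the top. The outermost of 5 equal parts (quintiles) differed by 0.067. With no minimum count, but still only the deeper copy of a barcode (1497 and 2130 cells), the terciles differed by 0.096 (edgeR adjusted p = 1.02e-09). Without the library block the adjusted p was 0.158. With terciles of the TEAD score in the same fit the value turned to -0.0074 (edgeR adjusted p = 0.731), and with terciles of the ZNF263 motif it was 0.0082 (adjusted p = 0.187). The call was kept beside proneural (0.022, adjusted p = 0.00867), CTCF (0.040, adjusted p = 0.00646) and SP/KLF terciles (0.039, adjusted p = 2.10e-06). ZNF263 is the motif most correlated with REST across these cells. A smaller value beside it, here or below, is thus partly built in, and no conclusion is drawn from it. Of the motifs outside the score, EBF1 and ISL2, factors of ganglion cells, were both higher in the highest tercile, as were 5 of 5 proneural motifs. The progenitor lists did not go one way: 4 of 4 TEAD motifs were lower, while 5 of 7 progenitor homeodomain and 3 of 6 SOX motifs were higher and none of either was lower. Of the SP/KLF motifs 9 of 10 were lower.

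The proneural bHLH score (NEUROD1, NEUROD2, Neurog1, NEUROG2 and Atoh1), the family that starts neuronal differentiation, had little relation to REST. The REST share was 139.7 and 140.1 in its lowest tercile, 140.9 and 139.8 in the middle and 142.6 and 142.3 in the highest. Highest minus lowest was 0.028 ± 0.0046 (edgeR adjusted p = 1.73e-05), where 64.1% of motifs were called. The top decile was back at 141.7 and 140.8, and the outermost quintiles differed by 0.015 (adjusted p = 0.0791). Without the block the adjusted p was 0.130, and beside TEAD terciles the value was -0.024 (adjusted p = 0.0522), beside ZNF263 terciles -0.0023 (adjusted p = 0.522). The call was kept beside POU4F (0.023, edgeR adjusted p = 0.0348), CTCF (0.021, adjusted p = 0.00371) and SP/KLF terciles (0.024, adjusted p = 0.00109).

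Crossing both scores, the REST share was highest where both were in their highest tercile, at 144.3 and 144.5 (mean 144.4 ± 0.151). With POU4F highest and proneural lowest it was 140.6 and 142.6, and with POU4F lowest and proneural highest 142.6 and 143.4. All 3 combinations with POU4F in its middle tercile had means between 138.1 and 139.3. No test was made over these combinations. The clusters did not repeat this order. In cluster 4, with the highest REST share, 3 of 5 proneural motifs were lower than in the other clusters and 0 higher (mean -0.021, log2). In cluster 6, 4 of 5 were higher (mean 0.16), with a REST share of 141.4 and 140.8. Cluster 5 also had 4 of 5 higher (mean 0.083), with 147.0 and 148.6.

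**Figure D3:**
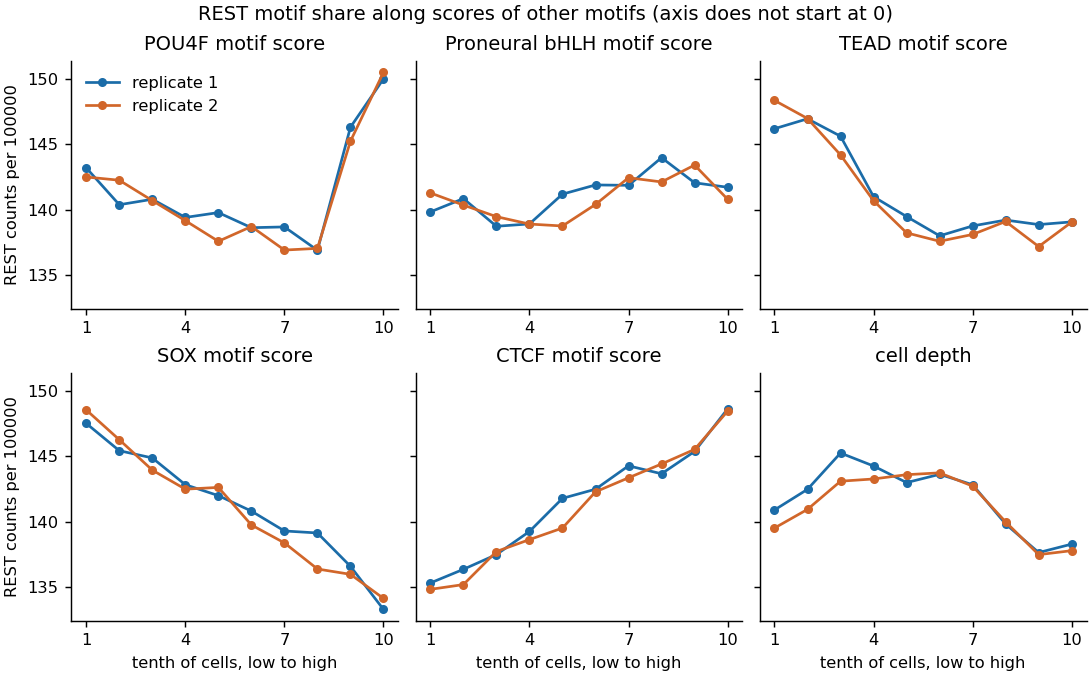
REST motif counts per 100000 motif counts (y axis, not starting at 0) in deciles of the kept cells of each library (x axis, low to high) by 5 motif scores and by cell depth, with 1 line per library. Along POU4F the share falls to about 137 by the 8th decile and stands at 150.0 and 150.5 in the top decile; it declines along SOX, declines along TEAD to the 6th decile and then stays near 139, and climbs along CTCF.

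Along the progenitor families the REST share was lower at higher scores. TEAD factors are the DNA-binding partners of YAP in growing progenitors. In the lowest tercile by TEAD the REST share was 145.8 and 146.0, in the middle 139.1 and 138.4 and in the highest 139.0 and 138.3. The middle and highest terciles overlapped between libraries, so the decline lay in the lower part of the score. Highest minus lowest was -0.078 ± 0.0036 (edgeR adjusted p = 5.91e-07), rank 50 from the bottom, with 82.6% of motifs called. SOX factors of the SOXB1 and SOXE groups maintain neural progenitors and glia. Along SOX the share declined through all terciles, with 145.7 and 145.8, then 141.0 and 140.6, then 137.1 and 136.1, and no overlap. The top decile held 133.2 and 134.1. Highest minus lowest was -0.10 ± 0.0045 (edgeR adjusted p = 2.25e-44), rank 19 from the bottom, with 83.1% of motifs called. Each fit left 2 residual degrees of freedom and shared the spread across motifs, so the smallest p-values rest mainly on that sharing.

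Both progenitor values were smaller beside the ZNF263 score, at -0.025 for TEAD (edgeR adjusted p = 0.00261) and -0.045 for SOX, and kept their call. In the same SOX comparison 83.1% of all 579 motifs were called, 233 higher and 248 lower. Of the lists, 5 of 5 ganglion cell motifs and 10 of 10 SP/KLF motifs were lower. Of the 7 progenitor homeodomain motifs, a list that holds RAX and LHX2 of the retinal progenitor, 6 were higher and 1 was lower.

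REST rose with the CTCF score. The REST share went up through the terciles of the score of CTCF and its germline paralogue CTCFL, with 136.6 and 136.3, then 142.3 and 140.7, then 145.5 and 145.7. Highest minus lowest was 0.092 ± 0.0056 (edgeR adjusted p = 2.80e-09), rank 9 from the top of 579, with 78.6% of motifs called. The lowest decile held 135.3 and 134.8 and the top decile 148.7 and 148.5. Beside ZNF263 terciles the value was 0.031 (edgeR adjusted p = 5.25e-06). The CTCF motif itself was 0.033 above the other clusters (log2) in cluster 4, where REST was 0.098 above them and CTCFL was at -0.0022 (edgeR adjusted p = 1), and -0.064 in cluster 2, where REST was -0.10. The order of clusters was not the same for both: CTCF was highest in cluster 5, at 0.055, with CTCFL at 0.094. There REST was 0.066 above the others, less than in cluster 4. Between the outer terciles by CTCF, 10 of 10 SP/KLF motifs were higher, while 4 of 4 TEAD and 6 of 6 SOX motifs were lower. Over all 579 motifs, 226 were higher and 229 lower.

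Other factor families gave differences between outer terciles that were all below those of SOX, TEAD and CTCF in size. ONECUT factors, of horizontal and ganglion cells, gave 0.037 ± 0.0045 (edgeR adjusted p = 4.67e-15, 63.9% of motifs called), and only the top deciles stood out: 145.3 and 144.1 in the 9th and 147.9 and 148.9 in the top one, against means between 139.1 and 140.5 in the lower 8. The SP/KLF factors of GC-rich promoters gave 0.050 ± 0.0048 (adjusted p = 5.18e-10, 74.1% called). CRX/OTX, of photoreceptor precursors, gave 0.019 ± 0.0039 (adjusted p = 0.00311, 45.4% called), with 144.8 and 145.4 in the top decile. The repressors SCRT1, SCRT2, SNAI2 and ZEB1 gave 0.030 ± 0.0059 (adjusted p = 1.40e-06, 67.4% called), and 0.0072 (adjusted p = 0.278) in cells of middle depth. Without replicate 2 the value was 0.020, and the members differed: SNAI2 and ZEB1 correlated positively with REST across cells in both libraries and SCRT1 and SCRT2 negatively, the latter at -0.20 and -0.21 in cluster 4 (log2). For E2F, of the cell cycle, no difference was detected: the libraries gave -0.011 and 0.0091 (adjusted p = 1, 62.2% called). The 7 E2F motifs did not go one way: across cells 2 correlated positively with REST in both libraries and 4 negatively. Their mean r ran from -0.19 to 0.30. Without the block ONECUT, CRX/OTX and SCRT/SNAI/ZEB lost their calls (adjusted p = 0.0609, 0.362 and 0.160). With no minimum count their values were higher, at 0.090, 0.059 and 0.062, and E2F was at 0.040 (edgeR adjusted p = 1.47e-07). ONECUT was also higher in cells of middle depth (0.063) and between quintiles (0.068).

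The REST share was also lower in the deepest cells. The share was 143.6 and 142.2 in the shallowest tercile, 143.7 and 143.5 in the middle and 138.7 and 138.5 in the deepest. Deepest minus shallowest was -0.051 ± 0.0036 (edgeR adjusted p = 7.91e-06, 65.6% of motifs called). The call was lost without the block (adjusted p = 0.116) and with no minimum count (-0.0022, adjusted p = 1). By deciles of depth the relation was not steady: the shallowest held 140.9 and 139.5, the 3rd 145.3 and 143.1 and the 9th 137.6 and 137.5. Scores were corrected for depth by a straight-line fit, which need not remove such a bend, and the REST share was not corrected. Within cells of middle depth alone, REST still differed along POU4F (0.051), TEAD, SOX and CTCF, each with its call kept. Because most barcodes occurred in both libraries, the comparisons were also made in the 18 and 126 kept cells whose barcode is in 1 library alone. There CTCF gave 0.12 (edgeR adjusted p = 0.00985) and kept its call, while TEAD at -0.075 (adjusted p = 0.0884), SOX at -0.053 (adjusted p = 0.360) and POU4F at -0.019 (adjusted p = 0.849) did not pass; the clusters could not be fitted on so few cells.

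**Figure D4:**
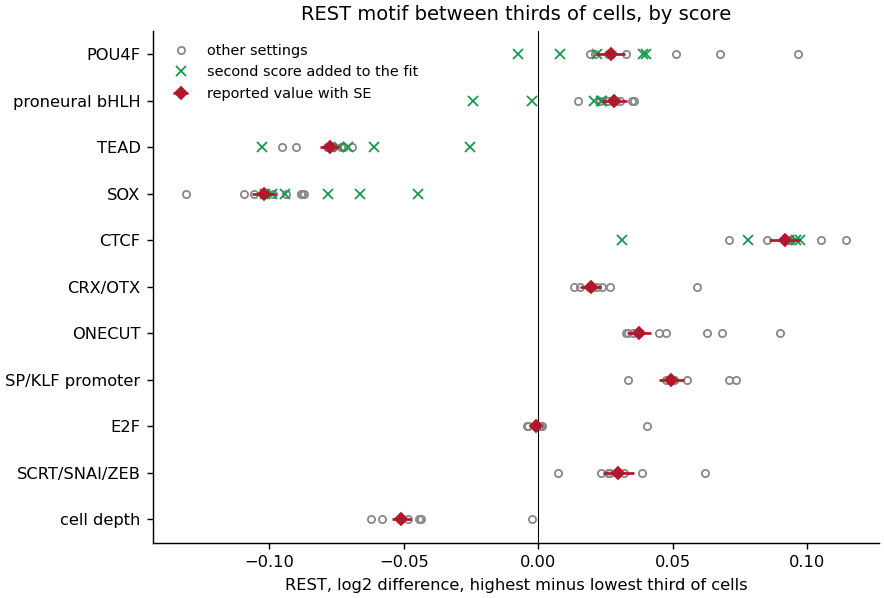
Difference in REST between the highest and the lowest tercile of cells by each score (log2, x axis), with the reported value and its SE as a diamond with a bar, other settings as open circles and fits with a second score as crosses; E2F has no SE. The reported values of SOX, TEAD and depth lie below 0 and that of CTCF is the highest at 0.092, while crosses of POU4F and proneural bHLH lie on both sides of 0.

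Cell by cell, the motif most like REST was ZNF263, a C2H2 zinc-finger factor, with a Pearson r of 0.70 and 0.69 over 890 and 1051 cells. Also among the 8 nearest were Ahr::Arnt (0.59 and 0.63), a dimer that senses xenobiotics, and RREB1 (0.58 and 0.60), a Ras-responsive zinc finger. MZF1 (0.59 and 0.57), SNAI2 (0.60 and 0.54), SPIB (0.56 and 0.56) and Myod1 (0.55 and 0.54) belonged to them too, and CTCF was 10th (0.54 and 0.50). The motifs least like REST were all homeodomain: LHX9, Shox2 and ISX each had -0.64 and -0.63. PRRX1, with counts identical to Prrx2 and RAX2, and SHOX, identical to UNCX, came next at -0.60 and -0.61. These coefficients share depth, peaks and base composition between motifs and carry no p-value. No other motif had the same counts as REST.

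By list, the score correlations with REST were 0.36 and 0.34 for POU4F, 0.15 and 0.080 for proneural bHLH, -0.35 and -0.43 for TEAD, -0.30 and -0.48 for SOX, -0.45 and -0.53 for progenitor homeodomain and 0.53 and 0.52 for CTCF. Of the 22 other zinc-finger factors, 15 were positive and 5 negative in both libraries, against 275 positive and 250 negative among all 578 other motifs. For POU4F the rank correlation was lower, at a mean Spearman rho of 0.15, in the same cells where the deciles bend. Among cell types that could be mixed into the retina, the microglia list gave 0.28 and 0.21 with members on both sides (SPIB 0.56, SPI1 -0.13 as means of both libraries), the endothelial and erythroid list 0.15 and 0.15 and the pigment epithelium list 0.20 and 0.30, and their part in the result was not tested.

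**Figure D5:**
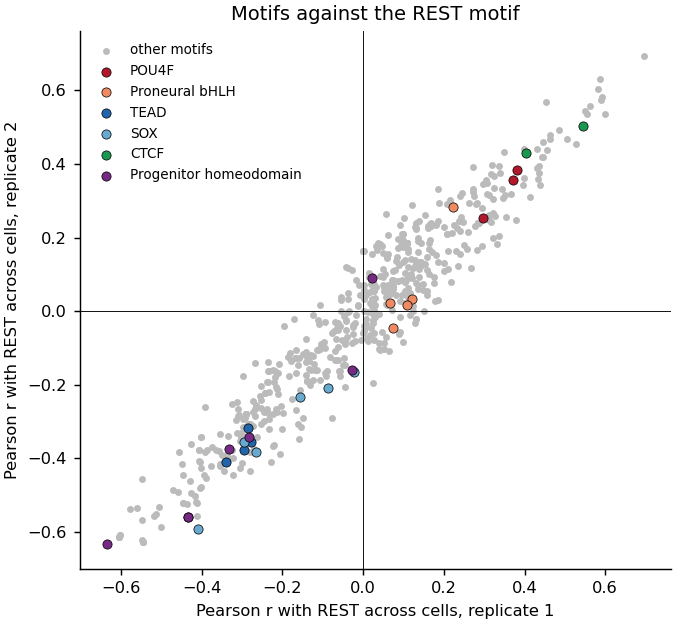
Pearson r with REST of all other motifs in replicate 1 (x axis) and replicate 2 (y axis), across 890 and 1051 kept cells, with the named lists in colour. ZNF263 lies at the upper right at 0.70 and 0.69, the CTCF motif at 0.54 and 0.50, and homeodomain motifs such as LHX9 at the lower left at -0.64 and -0.63.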

How the data were processed

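The deposited matrices hold whole-number counts of 579 motifs by barcode, written by software version 1.1.0 per the file headers; Cell Ranger and the build mm10 are named in the submitters' processing notes. How the authors matched motifs and called peaks is not given in the sources used here. Library totals were 3373212147 and 3932721221 motif counts, of which kept cells held 98.3% and 97.3%; the counts of a cut can enter several motifs, so they are not independent molecules. Cells were kept by the rule in the text, and no doublet caller was run.

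Counts were summed per library and tercile of cells, or per library and cluster, and tested with edgeR 4.0.16 (quasi-likelihood, TMM scaling, no low count filter, the library as a block, Benjamini-Hochberg over 579 motifs) in R 4.3.3. The block stands because every tercile or cluster was taken from the same 2 libraries. Scores and correlations used log2(counts per 10000 + 1) with depth regressed out within each library. Clusters were built with scanpy 1.11.5 (15 principal components, 20 neighbours, Leiden resolution 0.5) without REST and any motif correlated with it above 0.7; none was. A cluster took a list's name where at least 3 of its 10 leading motifs belonged to a cell type list. The tests were tested on simulated data. The outcome is not reported here, so the smallest difference that they detect is not stated. Alternatives were no scaling, DESeq2 1.42.0, no replicate block, a low count filter, other minimum totals, thinning to 1000000 counts, depth subsets, outer quintiles, other resolutions and each library alone.

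Named motifs are REST, members of the lists described, and the 8 most and 8 least correlated with REST, some of which are not reported here; HIF1A was named as a leading motif of its cluster after its values were seen. The members and lists were chosen with earlier results of these data known. All list members were matched but TAL1::GATA1.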

Additional observations from a re-analysis of the deposited data

How the results depend on the processing

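The range of REST over clusters lay between 0.14 and 0.17 (log2) under 11 alternatives with adjusted p up to 0.000262, and between 0.16 and 0.17 without replicate 1 or replicate 2. CTCF kept its call under all 16 alternatives with a test (0.031 to 0.12). TEAD and SOX kept theirs but for barcodes in 1 library alone.

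Without the replicate block, calls were lost for POU4F (0.027, adjusted p = 0.158), proneural bHLH (0.028, 0.130), CRX/OTX (0.019, 0.362), ONECUT (0.037, 0.0609), SCRT/SNAI/ZEB (0.030, 0.160) and depth (-0.051, 0.116). The following settings were chosen after seeing the data. Beside a second score, POU4F was -0.0074 with TEAD and 0.0082 with ZNF263, and proneural bHLH -0.024 with TEAD and -0.0023 with ZNF263. POU4F kept its call beside proneural bHLH (0.022), CTCF (0.040) and SP/KLF (0.039). Proneural bHLH kept its call beside POU4F (0.023), CTCF (0.021) and SP/KLF (0.024). In barcodes of 1 library alone, with 18 and 126 cells, differences were -0.019 for POU4F, -4.03e-05 for proneural bHLH, -0.075 for TEAD, -0.053 for SOX, -0.033 for CRX/OTX, -0.018 for ONECUT, 0.078 for SP/KLF, 0.0088 for E2F, 0.054 for SCRT/SNAI/ZEB and -0.065 for depth, none past the threshold. Clusters could not be fitted on those cells.

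Proneural bHLH was 0.015 in outer quintiles, SCRT/SNAI/ZEB 0.0072 in cells of middle depth, and depth -0.0022 with no minimum count. E2F, never called on kept cells, changed sign with no scaling (0.00033), thinned cells (0.0014), quintiles (0.00097) and middle depth (0.00080). It was 0.040 with no minimum count (edgeR adjusted p = 1.47e-07). The REST share was 141.2 per 100000 without the deepest 5% of cells, 143.6 in cells of middle depth and 137.5 in barcodes of 1 library alone. Its excess CV was 4.98% at a minimum of 1000000 counts, 15.7% with no minimum count, 4.56% in cells of middle depth and 6.32% in barcodes of 1 library alone. The motifs with r of at least 0.3 in both libraries numbered 49, and 79 in cells of middle depth. The cause of these shifts was not tested.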
